A study of Homo sapiens with 4 samples.

Results

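The imprinted miRNA cluster of chromosome 14q32, which lies between the genes DLK1 and DIO3, was examined in small RNA libraries of HEK293T cells, a human embryonic kidney line carrying the SV40 large T antigen. Members were taken by name: 46 hairpin names gave 87 mature miRNA rows of the 2656 in the deposited table. Small RNA was sequenced from monoclonal landing pad lines, in which a fixed genomic site is prepared to accept a transgene. The pad held either PGK, the promoter of a phosphoglycerate kinase gene, or CAG, a composite promoter with a cytomegalovirus enhancer. The groups held 2 libraries each, named here PGK replicates 1 and 2 and CAG replicates 1 and 2. The series set the lines side by side to look for miRNAs that differ with the promoter. How many clones stood behind each group is unstated in the labels, so promoter and clone cannot be told apart, and nothing says that replicates were separate cultures, so p-values measure only the spread between these samples. In bulk RNA, fewer cells with a miRNA and less of it per cell cannot be told apart either.

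In mammals the cluster is transcribed from the maternal chromosome, together with the long non-coding RNAs MEG3 and MEG8, while the paternal copy expresses DLK1, RTL1 and DIO3. A differentially methylated region upstream of MEG3 sets this pattern. The miRNAs are abundant in brain, placenta and embryonic tissue and several of them act in neurons and muscle. Some members lie antisense to RTL1, a retrotransposon-derived gene essential in the placenta, and target its transcript.

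The mature sequences of the 12 members with the most reads are shown first, 5′ to 3′, because most of the residual signal of the cluster rests on them. They come from RefSeq (GRCh38.p14), which held 86 of the 87 members and no entry for miR-668-3p. Capitals mark the seed, bases 2 to 8, which selects target mRNAs. miR-300 is added because it carries the seed of miR-381-3p, and miR-362-3p, an X-linked miRNA outside the cluster, because it carries the seed of miR-329-3p; the latter was added after its reads were seen.
miR-381-3p: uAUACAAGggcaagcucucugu
miR-300: uAUACAAGggcagacucucucu
miR-379-5p: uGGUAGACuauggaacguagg
miR-411-5p: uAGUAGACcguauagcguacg
miR-654-3p: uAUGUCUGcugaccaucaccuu
miR-409-3p: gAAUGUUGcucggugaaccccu
miR-543: aAACAUUCgcggugcacuucuu
miR-329-3p: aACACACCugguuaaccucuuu
miR-362-3p: aACACACCuauucaaggauuca
miR-127-3p: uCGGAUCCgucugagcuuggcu
miR-493-5p: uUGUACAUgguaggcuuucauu
miR-494-3p: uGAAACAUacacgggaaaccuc
miR-134-5p: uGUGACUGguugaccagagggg
miR-758-3p: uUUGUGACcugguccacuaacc

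Total counts were 2845945 to 13780279 per library, lowest in CAG replicate 2 and highest in CAG replicate 1, and 1180 to 1404 miRNAs had a read in each. The miRNAs chosen as HEK293T markers (miR-10a-5p, miR-10b-5p, miR-17-5p, miR-92a-3p and miR-196a-5p) were all detected and together took 214159 to 234196 RPM, which is reads per 1000000 miRNA reads of a library. Of other cell types' markers, miR-223-3p of blood and miR-214-3p of fibroblasts were at 0 reads in every library. Others of the same lists had reads, among them miR-486-5p of blood at 36.7 to 53.8 RPM and miR-199a-3p of fibroblasts at 20.2 to 53.8 RPM. All lists are described further below. Reads amplified by PCR without molecular identifiers are not independent molecules, so the intervals and limits given here cover counting error only.

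The cluster was close to silent in both groups. Its 87 rows held 212 reads over the 4 libraries, 6.65 RPM (95% exact interval 5.78 to 7.61), and 60 rows had no read in any library. A row without reads in all 4 libraries can have stood at up to 0.0941 RPM (3 counts over the summed total). For scale, the median miRNA among the 773 that passed the low-count filter (edgeR's rule, set to a minimum count of 10) stood at 14.7 RPM over the same libraries. Rows at 0 throughout made up 69.0% of the cluster and 38.9% of all 2656 rows. Only miR-381-3p passed the filter, which is 1.15% of the cluster against 29.1% of all rows. Of the 46 hairpin names, 21 had a read on either arm and 25 had none. The silent ones include miR-376a, miR-376b, miR-376c, miR-377, miR-382, miR-410, miR-431, miR-432, miR-433, miR-487b and miR-770.

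Residual reads numbered 30 in PGK replicate 1, 27 in PGK replicate 2, 130 in CAG replicate 1 and 25 in CAG replicate 2. Divided by library totals, the cluster stood at 3.78 RPM in PGK replicate 1 (95% exact interval 2.55 to 5.40) and 3.68 in PGK replicate 2 (2.43 to 5.36). It stood at 9.43 in CAG replicate 1 (7.88 to 11.2) and 8.78 in CAG replicate 2 (5.68 to 13.0). Both CAG libraries thus lay above both PGK libraries and the groups did not overlap, as was the case in this direction for 29.8% of the 773 single miRNAs that passed the filter. Pooled over libraries, 155 reads in CAG and 57 in PGK gave a ratio of 2.50 (95% exact interval 1.83 to 3.44), and 2.35 without CAG replicate 1, the library with 61.3% of the cluster's reads and 43.2% of all reads. With 2 libraries a group, no p is given for the sum. Without miR-381-3p the ratio was 2.64 (1.82 to 3.90). The 932 other miRNAs with 1 to 61 reads in all, the range of the members with reads, had summed levels of 409 and 385 RPM in the PGK libraries and 387 and 484 RPM in the CAG libraries. Their pooled ratio was 1.02 (0.980 to 1.05), a comparison chosen after the cluster's values were seen. It was 1.22 (1.15 to 1.29) without CAG replicate 1 and 0.973 to 1.05 without any other library.

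**Figure D1:**
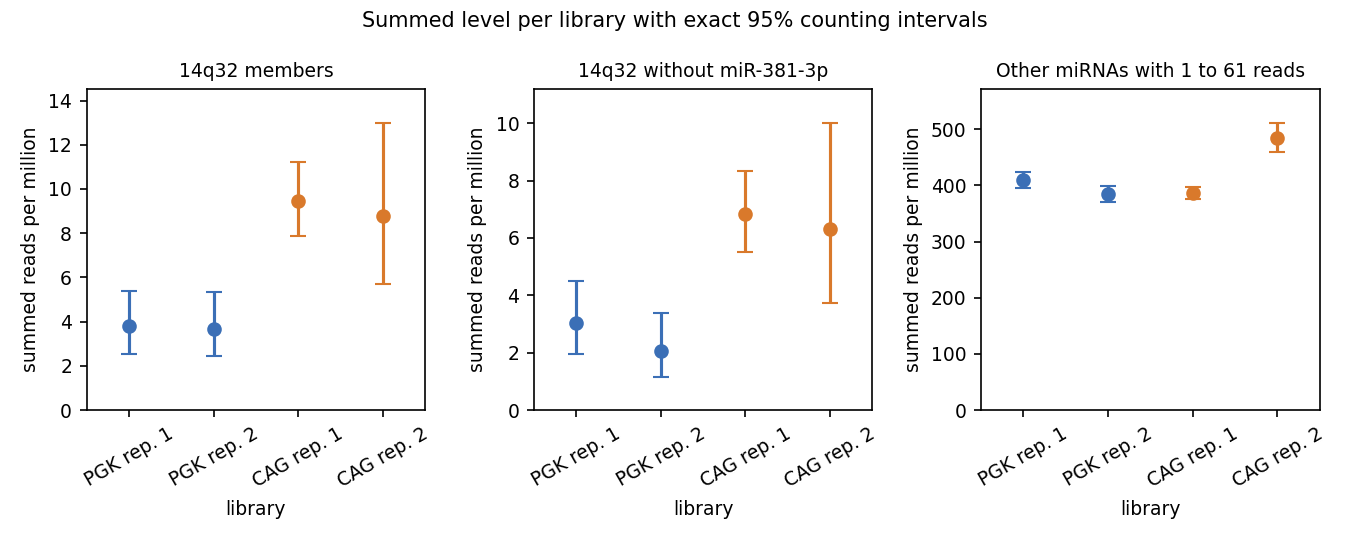
Summed RPM (y axis, from 0) in each of the 4 libraries (x axis) for the 87 members of the 14q32 cluster, the same without miR-381-3p, and the 932 other miRNAs with 1 to 61 reads; bars are exact 95% counting intervals. The PGK libraries of the cluster sit at 3.78 and 3.68 and the CAG libraries at 9.43 and 8.78, while the other miRNAs run from 385 to 484.

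The summed level of fibroblast and mesenchymal markers was also higher in both CAG libraries, through 2 of the 5 markers. The list (miR-143-3p, miR-145-5p, miR-199a-3p, miR-199a-5p and miR-214-3p) summed to 29.1 to 36.0 RPM in PGK and 47.7 to 68.9 in CAG libraries, with miR-214-3p at 0 and miR-145-5p at 3 reads or fewer per library. In PGK and then CAG libraries, miR-199a-3p stood at 20.2 and 23.7 against 29.6 and 53.8 RPM, and miR-143-3p at 4.41 and 5.73 against 13.4 and 10.5 RPM. The groups overlapped for miR-199a-5p, at 4.29 and 6.14 against 4.57 and 4.57 RPM. miR-145-5p stood at 0.252 and 0.409 against 0.0726 and 0 RPM. A count of 0 in CAG replicate 2 allows up to 1.05 RPM, so no direction is read for it. The part of these markers in the cluster's difference was not tested. The 6 blood markers summed to 37.7 to 42.7 in PGK and 40.9 to 56.2 in CAG libraries, nearly all of it miR-486-5p. The 5 pluripotency markers, 3 of them at 0, summed to 0.126 and 0.136 RPM in PGK and 0.435 and 0.351 RPM in CAG libraries. That sum was higher in both CAG libraries too, but it rests on 1 read in each library except CAG replicate 1. Of the 3 neuronal markers, miR-124-3p, the miRNA most specific to neurons, had 3 reads or fewer per library, while miR-9-5p and miR-128-3p carried a sum of 15911 to 21207 RPM. Of these, miR-9-5p was lower in CAG libraries, at 4121 and 3806 against 1925 and 1916 RPM. For miR-128-3p the groups overlapped, at 12721 and 17400.5 against 13987 and 15112 RPM. The muscle sum was lower in CAG libraries, at 15.7 to 16.9 against 94.0 to 107 RPM in PGK libraries. Nearly all of it was miR-1-3p, at 105 and 91.9 against 15.4 and 16.9 RPM. The liver miRNA miR-122-5p had 6, 19, 20 and 0 reads, in the order PGK replicates 1 and 2, then CAG replicates 1 and 2, which is used for all read counts that follow.

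miR-381-3p held 28.8% of the cluster's reads and was its most abundant member in every library. Its hairpin, MIR381, lies at chr14:101045920-101045994 on the plus strand (GENCODE 29, GRCh38), in an intron of the host transcript MIR381HG. It had 6, 12, 36 and 7 reads, or 0.757, 1.64, 2.61 and 2.46 RPM. Both CAG libraries were above both PGK libraries, and the gap within the PGK pair was of the same order as that from PGK replicate 2 to either CAG library. Scaled by TMM, PGK libraries averaged 1.21 ± 0.652 CPM (SD, n = 2), and CAG libraries 2.53 ± 0.373 CPM (SD, n = 2). The log2 fold change, CAG minus PGK, was 1.15 (SE 0.52), which did not pass the test (edgeR quasi-likelihood, adjusted p = 0.178), while 14.2% of the 773 miRNAs tested did (8.15% higher and 6.08% lower in CAG cells). No member of the cluster was therefore called by edgeR, nor by limma-voom or by DESeq2, which gave miR-381-3p no adjusted p. In edgeR 1 member, miR-381-3p, had an unadjusted p under 0.05, as did 26.9% of the miRNAs tested. Among all 1624 miRNAs with reads, miR-381-3p ranked 666th by summed reads. No read was assigned to its other arm, miR-381-5p, or to miR-300, whose hairpin lies upstream of MIR381 and whose mature sequence carries the same seed. The mature sequences of miR-381-3p and miR-300 are alike over most of their length, and the labels do not state how reads that fit several miRNAs were counted.

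Between 10 and 18 reads were found for 6 further members, none of which passed the low-count filter. miR-379-5p, made from the hairpin that opens the distal stretch of the cluster (chr14:101022066-101022132, plus strand, intron of MEG8), had 2, 1, 14 and 1 reads. miR-654-3p had 1, 3, 13 and 1 reads, and its hairpin (chr14:101040219-101040299) overlaps no other annotated gene. In both, most reads lay in CAG replicate 1, and CAG replicate 2, the shallowest library, had a single read. Levels were 0.252, 0.136, 1.02 and 0.351 RPM for miR-379-5p and 0.126, 0.409, 0.943 and 0.351 RPM for miR-654-3p. A count of 0 in CAG replicate 2 allows up to 1.05 RPM, so a single read there cannot be told from the level of CAG replicate 1. Pooled ratios of CAG to PGK were 4.59 for miR-379-5p (95% exact interval 1.30 to 24.7) and 3.21 for miR-654-3p (1.01 to 13.4), but 1.79 (0.0340 to 22.3) and 1.34 (0.0272 to 13.5) without CAG replicate 1. For miR-654-3p the ratio was 2.06 without PGK replicate 1 and 6.68 without PGK replicate 2.

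miR-409-3p, from a hairpin in an intron of MEG9 (chr14:101065300-101065378), had 3, 0, 6 and 6 reads. Its levels were 0.378, 0, 0.435 and 2.11 RPM, so CAG replicate 2 stood apart and PGK replicate 1 lay close to CAG replicate 1. Its pooled ratio was 3.67 (0.991 to 20.3). Without CAG replicate 1 it was 10.7 (2.29 to 66.3), and without CAG replicate 2 it was 2.21 (0.473 to 13.7). It was at least 1.76 without PGK replicate 1 and 1.91 without PGK replicate 2. miR-127-3p, one of the members that target the RTL1 transcript, had 3, 1, 5 and 1 reads, or 0.378, 0.136, 0.363 and 0.351 RPM, so the groups overlapped, with a pooled ratio of 1.38 (0.326 to 6.63). That ratio was 2.65 without PGK replicate 1 and, in the other direction, 0.954 without PGK replicate 2. Its hairpin (chr14:100882979-100883075, plus strand) lies opposite an exon of RTL1, which is on the minus strand.

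miR-543 and miR-329-3p had most or all of their reads in CAG replicate 1. miR-543 (chr14:101031987-101032064, intron of MEG8) had 0, 2, 10 and 0 reads, a pooled ratio of 4.59 (0.978 to 43.1). Leaving out PGK replicate 1 gave 2.20, and leaving out PGK replicate 2, which holds both PGK reads, gave at least 1.59. With CAG replicate 1 left out, no CAG read remained. miR-329-3p had 0, 0, 11 and 0 reads, at least 3.37-fold higher in CAG with 3 reads over the PGK group as the limit of a count of 0. It has a pair of hairpins, MIR329-1 (chr14:101026785-101026864) and MIR329-2 (chr14:101027100-101027183), both in an intron of MEG8, which the mature counts cannot separate. In CAG replicate 2 a count of 0 allows up to 1.05 RPM, above the 0.798 of miR-329-3p in CAG replicate 1, so its absence from the shallower library is not a detectable difference.

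**Figure D2:**
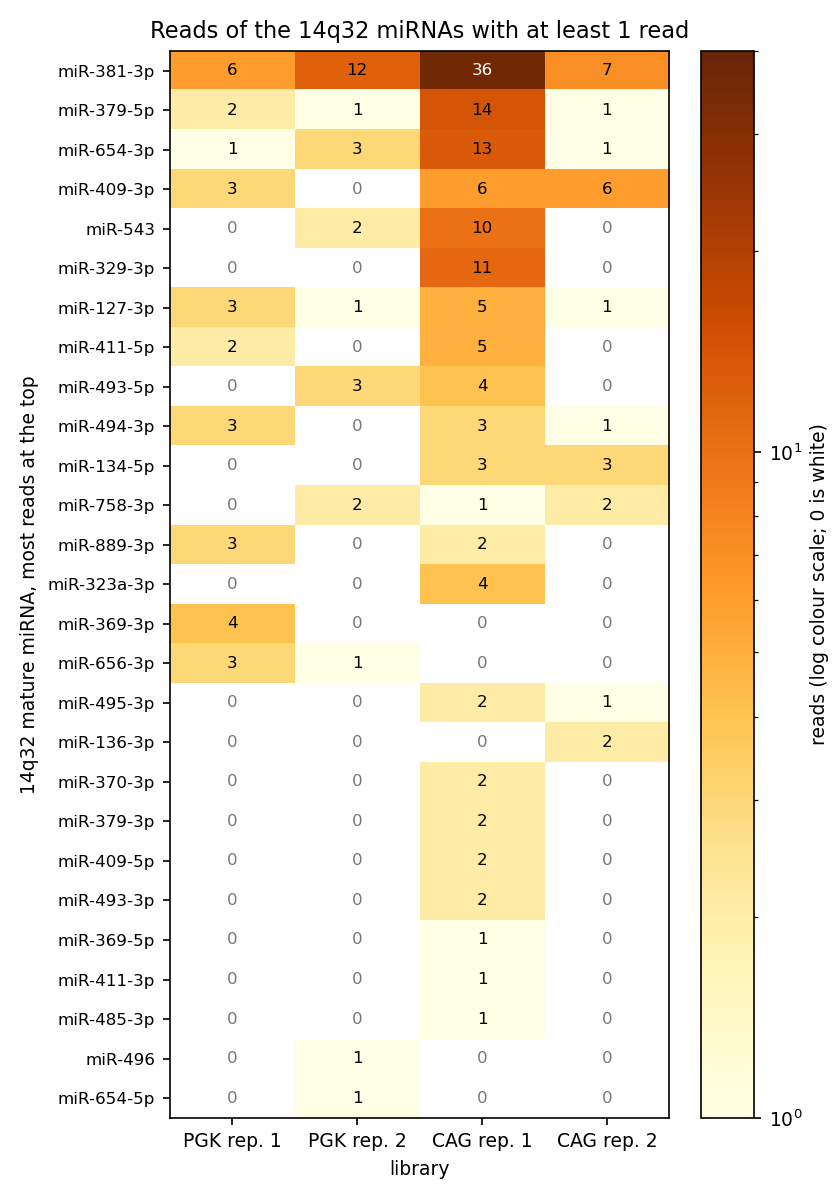
Reads (numbers and log colour scale) of the 27 members with at least 1 read (y axis, most reads at the top) in the 4 libraries (x axis). miR-381-3p leads in each library, 4 members have reads in all 4 libraries, and 9 members have reads in CAG replicate 1 alone.

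Detection across libraries was patchy. Of the 27 members with reads, 4 were found in all 4 libraries (miR-381-3p, miR-379-5p, miR-654-3p and miR-127-3p), 3 in 3 libraries (miR-409-3p, miR-494-3p and miR-758-3p), 7 in 2 and 13 in a single library. Of these 13, 9 were seen in CAG replicate 1 only, 2 in PGK replicate 2 only and 1 each in PGK replicate 1 and CAG replicate 2. Members with a read numbered 10, 10, 22 and 10 in the 4 libraries. If each library had been read to the depth of CAG replicate 2, the expected numbers were 6.98, 5.73, 12.1 and 10.0, the last being the count itself. CAG replicate 1 thus went from 22 to 12.1, and both CAG libraries lay above both PGK libraries. The same order was found for the clusters C19MC (0, 0, 2.72 and 1) and Xq27 (7.98, 8.61, 9.48 and 9), described below. It was not worked out over all miRNAs. Members of 14q32 with at least 3 reads numbered 7, 3, 12 and 3. These counts and those at 10 reads were not brought to a common depth, so they cannot be set against that order. At least 10 reads in a library were reached by no 14q32 member in PGK replicate 1 or CAG replicate 2, by 1 in PGK replicate 2 and by 5 in CAG replicate 1.

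The remaining 20 members with reads had 1 to 7 each: 15 had 2 to 7 and 5 had a single read. miR-411-5p, whose hairpin follows MIR379, had 2, 0, 5 and 0 reads. miR-494-3p had 3, 0, 3 and 1 reads and miR-493-5p had 0, 3, 4 and 0. miR-134-5p, a brain miRNA that acts on dendritic spines through LIMK1, had 0, 0, 3 and 3 reads. miR-758-3p, reported to target the cholesterol transporter ABCA1, had 0, 2, 1 and 2. No order of the libraries runs through these 5 members. Both with under 10 reads and picked here for their values, the members miR-369-3p (4, 0, 0 and 0 reads) and miR-656-3p (3, 1, 0 and 0 reads) had reads in PGK libraries only, at counts where a reading of 0 in CAG replicate 1 still allows 0.218 RPM.

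By position, reads were found in all 3 stretches of the cluster. The first stretch, with miR-770 inside MEG3 and miR-493, miR-337 and miR-665 just after it, had reads in 2 of 6 rows, 9 reads in all, on both arms of miR-493. The stretch around RTL1, with miR-431, miR-433, miR-127, miR-432 and miR-136 antisense to it and miR-370 in an intron of MEG8, had reads in 3 of 12 rows and 14 reads, 10 of them on miR-127-3p. The distal stretch, from miR-379 to miR-656 over 44.7 kb, had reads in 22 of 69 rows and 189 reads. Shares of rows with reads were 33.3%, 25.0% and 31.9%. The distal stretch alone stood at 3.41 and 3.14 RPM in the PGK libraries and at 8.49 and 7.73 RPM in the CAG libraries, again without overlap, whereas the other stretches had 7 reads or fewer in every library, too few to order the groups.

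Hairpins with and without reads alternated within short distances. MIR654 lies between MIR376A2 and MIR376B, which had none. MIR409, with 17 reads on both arms, and MIR369, with 5, flank MIR412, which had none, and MIR410, with none, lies between MIR369 and MIR656. Ligation efficiency depends on the ends of a small RNA, so the order of members within a library is less certain than the order of libraries for a member.

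**Figure D3:**
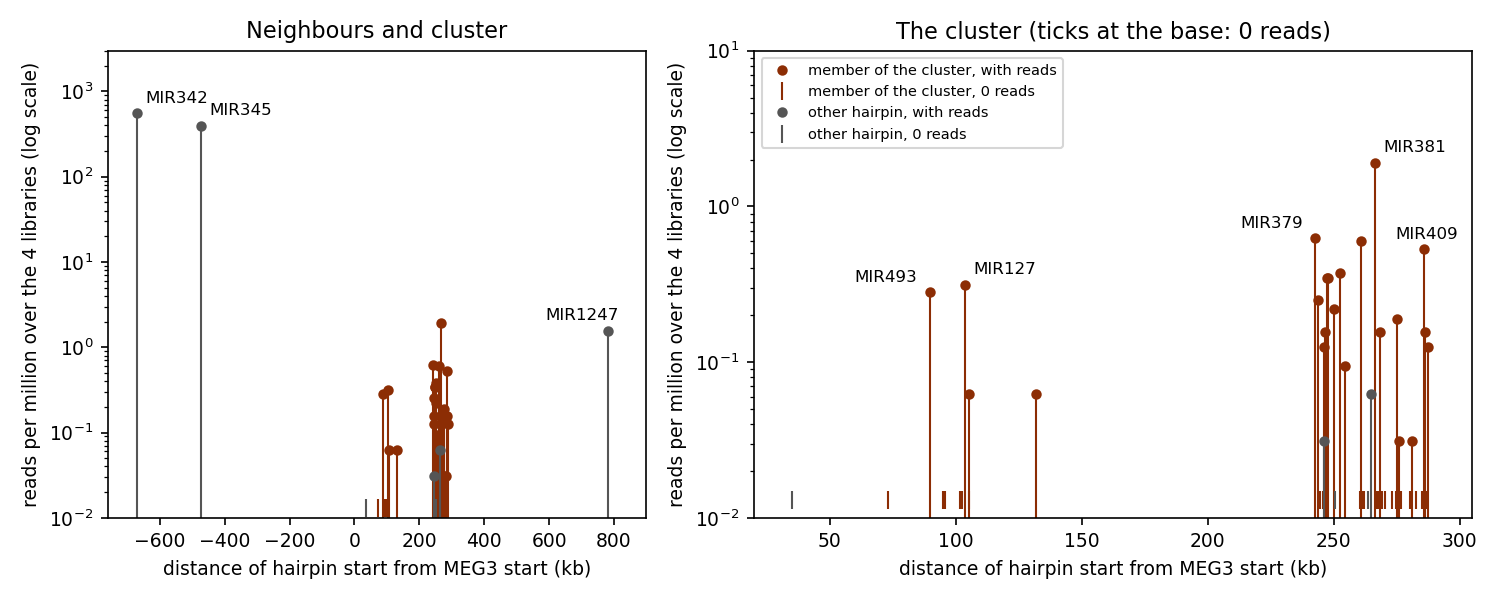
RPM over the 4 libraries (y axis, log scale) of each hairpin, both arms summed, against the distance of its start from the start of MEG3 in kb (x axis); the left panel shows the neighbours MIR342, MIR345 and MIR1247, the right panel the cluster. Ticks at the base mark hairpins with 0 reads, and the reads of miR-329 are drawn at both of its hairpins. Every member lies at or below 1.91 RPM, and MIR342 and MIR345 at 558 and 396.

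miRNAs on the same chromosome arm outside the imprinted domain were plainly present. MIR345 (chr14:100307859-100307956) ends 544 kb before MIR770, and miR-345-5p had 2659, 2359, 6198 and 1347 reads, or 335, 322, 450 and 473 RPM. The log2 fold change was 0.47 (SE 0.18), not called (edgeR adjusted p = 0.108), though called without CAG replicate 2 (adjusted p = 0.0404). MIR342 (chr14:100109655-100109753, intron of EVL) lies 743 kb before MIR770, and miR-342-3p had 5284, 2396, 8066 and 1387 reads, with a log2 fold change of 0.12 (SE 0.30) and an edgeR adjusted p of 0.837. The PGK pair of miR-342-3p differed more from each other, at 667 and 327 RPM, than the group means did. The most distal neighbour, miR-203a-3p, an epidermal miRNA (hairpin chr14:104117405-104117514), had 109, 93, 83 and 7 reads. It fell by 1.34 on the log2 scale (SE 0.35; edgeR adjusted p = 0.0300), opposite in sign to the pooled ratio of the cluster. That call was lost without PGK replicate 1 (adjusted p = 0.239) and without PGK replicate 2 (0.256), and the log2 fold change was −2.54 without CAG replicate 1.

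Of 8 rows of the imprinted domain that the name list leaves out, 4 had reads. miR-1247, made from an exon of DIO3OS (chr14:101560287-101560422, minus strand), the last of them along the chromosome, had most of them. Its 5p arm had 8, 4, 12 and 3 reads and its 3p arm 5, 10, 3 and 5. Only the 3p arm passed the filter, with a log2 fold change of −0.91 (SE 0.91) and an edgeR adjusted p of 0.561. miR-1185-2-3p had 2 reads and miR-1197 had 1. Summed, these 8 rows stood at 1.64 and 2.05 RPM in the PGK libraries and at 1.23 and 2.81 RPM in the CAG libraries, so the groups overlapped.

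A pair of other large clusters with narrow tissue patterns was read in the same way. C19MC, the primate placental cluster of chromosome 19, had 0 reads in both PGK libraries, 14 in CAG replicate 1 and 1 in CAG replicate 2 over 66 rows, or 0.470 RPM over the libraries. A count of 0 allows up to 0.378 and 0.409 RPM in PGK replicates 1 and 2. The Xq27 cluster, active in testis and epididymis, had 150, 147, 248 and 65 reads over 30 rows, or 18.9, 20.1, 18.0 and 22.8 RPM. The 14q32 sum of 6.65 RPM thus lay between C19MC (interval 0.263 to 0.776) and Xq27 (19.1, interval 17.6 to 20.7). Within Xq27, 298 of 610 reads were of miR-514a-3p. The groups overlapped for the Xq27 sum but not for that of 14q32. Nor did they for C19MC, at 0 in both PGK libraries and 1.02 and 0.351 RPM in CAG replicates 1 and 2. The 0.351 rests on 1 read and lies below what a count of 0 allows in either PGK library. Whether the difference between the groups is itself larger in 14q32 than in these clusters was not tested.

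**Figure D4:**
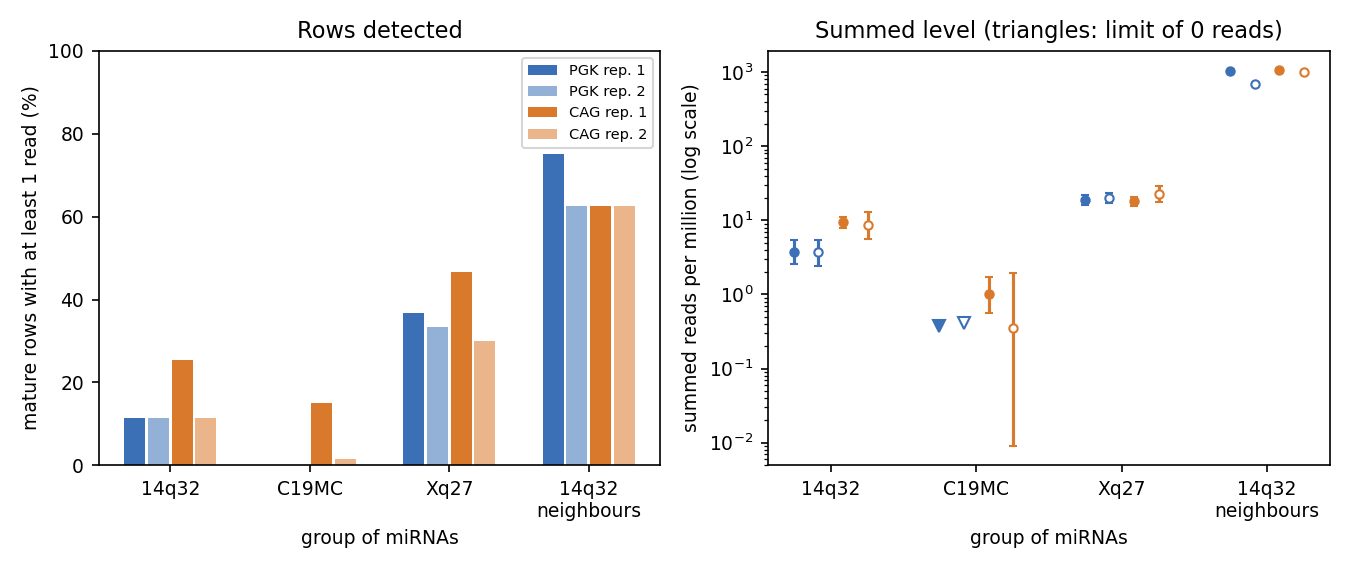
Left, the share of mature rows with at least 1 read (y axis, %) in each library for 14q32 (87 rows), C19MC (66), Xq27 (30) and the 14q32 neighbours (8). Right, their summed RPM (y axis, log scale) with exact 95% counting intervals, triangles marking the limit that 0 reads allow; 14q32 lies between C19MC and Xq27, and the neighbours at 686 to 1063.

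Where reads were present they lay mainly on 3p arms. Of 40 rows named 3p, 18 had reads, 157 in all, which is 74.1% of the cluster's reads. Of 42 rows named 5p, 7 had reads, 42 in all, and of 5 rows without an arm in the name 2 had reads, 13 in all. Both arms had reads in 6 hairpins, and in each 1 arm held most of the reads in the sum over libraries: miR-379-5p by 18 to 2, miR-409-3p by 15 to 2, miR-654-3p by 18 to 1, miR-411-5p by 7 to 1, miR-493-5p by 7 to 2 and miR-369-3p by 4 to 1. A first base of U, which Argonaute binds well, was found in 55.6% of the 27 members with reads and 22.0% of the 59 silent members with a sequence. The share was 41.8% among the 686 filtered miRNAs that matched RefSeq and 36.8% over all 2370 RefSeq mature sequences. Whether the first base bears on which members had reads was not tested, and it was not separated from the arm. Median GC content was 45.5% over the 86 matched members and 52.2% over all 2370 RefSeq mature sequences, while members with and without reads stood at 45.5% and 47.6%.

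The deposited table of seed families showed how far other miRNAs supply the seeds of the cluster. The 86 matched members carry 76 distinct seeds, of which 48 had 0 family reads in all 4 libraries and 28 had 1 to 95. None reached 100 reads, so the most abundant seed of the cluster stood at 2.98 RPM. That seed, ACACACC, had 13, 31, 43 and 8 family reads. Of its 95 reads 84 were of miR-362-3p and 11, all in CAG replicate 1, of miR-329-3p, which is 11.6% of the family and 25.6% in that library. The mature forms of miR-329-3p and miR-362-3p begin alike and part soon after the seed, as the sequences printed at the start show, so their full-length reads differ. The rule for counting reads that fit several miRNAs is unstated in the labels. AUACAAG had 61 family reads, all of miR-381-3p.

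GUGACUG had 50 family reads, 12% of them of miR-134-5p and the rest of miR-3118. For miR-655-3p and miR-485-5p, both at 0 reads, the seeds UAAUACA and GAGGCUG still had 30 and 15 reads through miR-374c-5p and miR-6884-5p. The seeds of miR-379-5p, miR-654-3p, miR-409-3p, miR-543 and miR-127-3p had no family read beyond those of the member. Within the cluster 9 seeds are shared by at least 2 members, among them UCAUAGA of miR-376a-3p and miR-376b-3p and AUCAUAC of miR-154-3p and miR-487a-3p, all 4 of which had 0 reads.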

How the data were processed

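The authors deposited whole-number read counts for 2656 mature miRNAs and 2094 seed families, 1 column per library, made with the NEBNext Small RNA kit per the labels' protocols. No label or header names the trimming, aligner, counting rule or build. The column totals of both tables differ by up to 19 reads per library. Differences were tested with edgeR 4.0.16 in R 4.3.3 (quasi-likelihood, robust, TMM, group alone, low-count filter of minimum count 10 and minimum total 15), with Benjamini-Hochberg adjustment over 773 miRNAs and a threshold of 0.05. The fit was tested on simulated data. Ratios of pooled reads used library totals and exact 95% binomial intervals. Positions and hosts are from GENCODE 29. Members with at least 10 reads, or past the filter, were described singly, and sequences given for the 12 with the most reads. The members and lists were chosen with earlier results of these data known. Alternatives used DESeq2 1.42.0, limma 3.58.1, other scalings, filters and thresholds, a replicate block and each library left out.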

Additional observations from a re-analysis of the deposited data

How the results depend on the processing

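No setting of the test called a member. The threshold of 0.01 reuses the main fit, so it could not have called a member that 0.05 did not. Of 15 alternatives 14 tested miR-381-3p, with log2 fold changes from 0.65 (without PGK replicate 1) to 1.78 (without PGK replicate 2) and adjusted p from 0.138 to 0.585 where one was given; the strict filter of 10 CPM in 2 libraries left 0 members. Without the low-count filter 27 members were tested in edgeR and none was called, against 5.73% of the 1624 miRNAs tested. The lowest adjusted p of a member was 0.167, for miR-329-3p, whose reads all lie in CAG replicate 1. An unadjusted p under 0.05 was found for 3 members, a count whose share over the 1624 was not worked out. Of all miRNAs, 63 were higher and 47 lower in CAG cells. The counts were 40 and 23 with the replicate block, 32 and 17 at a threshold of 0.01, and 39 higher with the strict filter. Leaving out each library gave 10 to 84 higher and 6 to 78 lower and 1 to 2 members tested, with the single library left in a group taken to vary like the others. Without PGK replicate 1 the counts were 12 and 7, without PGK replicate 2 they were 10 and 6, and without CAG replicate 2 they were 84 and 78. The cause was not tested. Same-numbered replicates deviated with a correlation of −0.015 across 773 miRNAs and the labels tie no number to a batch, so the block shares only a number.

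The pooled ratio of the cluster stayed between 2.35 and 2.58 without each library and with TMM sizes. With the 5 most abundant miRNAs taken out of the denominator its level became 7.07 and 6.65 RPM in PGK and 18.4 and 16.1 in CAG replicates 1 and 2. Without miR-381-3p it was 2.05 in PGK replicate 2 and 6.82 in CAG replicate 1. Members with at least 3 reads numbered 7 in PGK replicate 1, 3 in PGK replicate 2, 12 in CAG replicate 1 and 3 in CAG replicate 2. Those with at least 10 numbered 0, 1, 5 and 0 in library order. Expected at the shallowest depth were 5.73 in PGK replicate 2 and 12.1 in CAG replicate 1. Depth limits every member: a count of 0 allows 0.218 to 1.05 RPM in a library.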
